A study of Mus musculus with 4 samples.

Results

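The antigen receptor of invariant natural killer T (iNKT) cells was followed through 9 receptor gene segments, chosen by gene symbol from the 31053 gene rows of a single-cell RNA sequencing study of mouse thymus. They were the alpha chain variable segment Trav11 and joining segment Traj18, and the beta chain variable segments Trbv13-1, Trbv13-2, Trbv13-3, Trbv29, Trbv1, Trbv17 and Trbv19. The cells came from thymus of C57BL/6 mice and of Hivep3-/- mice on that strain, all untreated and 8 to 9 weeks old, and were purified by binding of PBS57-loaded CD1d tetramer. CD44low and CD44high cells were mixed 50:50 before loading, which sets part of every share of cells below. Each genotype had 2 libraries of 1 mouse each, made with 5' chemistry, which reads transcripts from the end where the V segment lies. No receptor-enriched library was used here, so every call rests on gene expression reads. A p-value measures the spread between these mice alone, except in a fit by cluster described below.

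An iNKT cell carries an almost invariant alpha chain, made by joining Trav11 (V alpha 14) to Traj18, paired with a restricted set of beta chains. The beta V segments named for this lineage in mice are those of the V beta 8 family (Trbv13-1, Trbv13-2 and Trbv13-3), then V beta 7 (Trbv29) and V beta 2 (Trbv1), with V beta 9 (Trbv17) and V beta 6 (Trbv19) as rarer partners. The alpha chain makes most contacts with CD1d and the lipid, and the beta chain tunes the strength of binding. In the thymus, iNKT cells pass from an immature stage 0 into the effector subsets iNKT1, iNKT2 and iNKT17, which make interferon gamma, interleukin 4 and interleukin 17.

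How well reads can be assigned to a segment depends on how much the segments differ, so the ends of the V exons of the main members are shown. The sequences are from GRCm38 (mm10) with the GENCODE annotation, plus strand, and the V windows lie within exon 2 of their gene, which encodes the V domain. In the V beta 8 family, capitals mark bases of Trbv13-2 that differ from Trbv13-1 or Trbv13-3, and bases of the other two that differ from Trbv13-2. The windows lie at chr6:41121677-41121826 for Trbv13-2, chr6:41116313-41116462 for Trbv13-1 and chr6:41130430-41130579 for Trbv13-3.
Trbv13-2: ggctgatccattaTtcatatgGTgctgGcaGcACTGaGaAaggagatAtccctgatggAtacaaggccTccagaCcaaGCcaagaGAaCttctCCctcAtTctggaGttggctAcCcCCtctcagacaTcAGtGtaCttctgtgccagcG
Trbv13-1: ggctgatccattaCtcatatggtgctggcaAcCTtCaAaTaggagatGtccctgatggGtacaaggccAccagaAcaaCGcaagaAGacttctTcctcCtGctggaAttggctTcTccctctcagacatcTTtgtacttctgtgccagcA
Trbv13-3: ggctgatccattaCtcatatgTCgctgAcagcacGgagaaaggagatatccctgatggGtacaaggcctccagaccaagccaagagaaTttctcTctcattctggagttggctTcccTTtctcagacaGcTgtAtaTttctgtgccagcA

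In these 150-base windows Trbv13-1 differed from Trbv13-2 at 24 bases and Trbv13-3 at 16. Over the whole transcript, Trbv13-2 was 90.6% identical to Trbv13-3, with a longest shared run of 50 bases, and 87.9% identical to Trbv13-1, with a longest shared run of 34 bases. Trbv29 was 58.7% to 78.0% identical to the other 6 beta members. Its longest run shared with any of the other 34 annotated Trbv genes was 23 bases, shared with Trbv21 and given in capitals, and its window lies at chr6:41271732-41271881.
Trbv29: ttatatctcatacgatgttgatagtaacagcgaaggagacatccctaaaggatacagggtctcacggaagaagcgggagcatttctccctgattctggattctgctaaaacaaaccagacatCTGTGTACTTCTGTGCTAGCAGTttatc

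The invariant alpha chain is shown by its V and J parts. Trav11 has near copies: its transcript matched Trav11d over all 342 aligned bases and differed from Trav11n at 8 of 343, and capitals in the Trav11 window (chr14:53519709-53519858) mark the 4 bases that differ from Trav11n. Reads of Trav11 and Trav11d can therefore not be told apart by sequence over the V part. Traj18 is a single exon of 66 bases at chr14:54200777-54200842.
Trav11: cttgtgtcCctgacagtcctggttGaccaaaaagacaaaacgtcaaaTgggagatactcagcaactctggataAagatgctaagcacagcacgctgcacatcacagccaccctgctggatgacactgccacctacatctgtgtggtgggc
Traj18: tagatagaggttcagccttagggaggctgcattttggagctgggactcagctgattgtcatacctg

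The libraries held 22279 barcodes, of which 19647 cells passed the filters (7231 and 3651 from C57BL/6 replicates 1 and 2, and 4598 and 4167 from Hivep3-/- replicates 1 and 2). Values of the 4 libraries are given in this order throughout. Median unique molecular identifiers (UMIs, each 1 captured transcript) per cell were 4596, 5268, 6833 and 6491. C57BL/6 replicate 1 stood apart: 47.4% of its cells had a UMI of Trac, the alpha constant gene, against 74.1% to 75.7% in the others. Xist, the X inactivation transcript, had a UMI in 65.2% of its cells, against 0.0240% to 0.152% in the others. The authors describe the C57BL/6 mice as female. Read by Xist, C57BL/6 replicate 1 was female and the others were not. Sex cannot be told apart from whatever else set this library off. Hivep3 itself was counted at 38.5, 36.4, 101 and 68.0 CPM (counts scaled to the same total of UMIs for every library), higher in both libraries labelled Hivep3-/-. The sources used here do not give the deleted part, so this does not check the genotype, and Hivep3-/- below means the libraries so labelled. Cd3e, which marks T cells, was detected in 98.2% to 99.8% of cells. Between 26 and 58 barcodes were shared between any pair of libraries.

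Cells were grouped into classes by clusters named from fixed marker genes. They were stage 0-like (1231 cells), iNKT2-like, iNKT17-like (635 cells, led by Blk and Il23r), iNKT1-like and cycling-like cells. A further 13.9% of C57BL/6 and 15.7% of Hivep3-/- cells stayed unnamed. The stage 0-like class pooled a cluster of 625 cells and a cluster of 606 cells. The larger was led by Itm2a and Cldn10, with Cd24a and Egr2 among its leading genes. The smaller was led by Gm43352 and Itm2a, with Myb, Lef1 and Slamf6 but neither Egr2 nor Cd24a among its leading genes. The iNKT2-like class held 2518, 752, 491 and 571 cells and the iNKT1-like class 2896, 1886, 2790 and 2182.

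Both large classes pooled clusters that the genotypes filled differently. The iNKT2-like class had a cluster led by Cd74 and Il6ra, with Il17rb, Izumo1r and Il4 among its leading genes, and a cluster led by Ccr9, the cell cycle gene Ccnb2 and Il13, which also had Cenpa among its leading genes. The second held 52.9%, 54.5%, 24.2% and 26.4% of the class, so it was the larger in C57BL/6 and the smaller in Hivep3-/-. The iNKT1-like class had a cluster led by Gzmb and Klrb1c, a cluster led by Ccl5 and Gzma, which held 24.5%, 25.7%, 43.3% and 46.3%, and a cluster of 1086 cells led by the interferon response genes Ifit3, Ifit1 and Isg15, with no iNKT1 marker among its first 10 genes. This interferon cluster made up 10.6%, 12.9%, 11.7% and 9.62% of the class. Values by cluster and without the interferon cluster, chosen after the data were seen, are given beside the results they move.

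A beta segment was called for each cell as the listed segment with most UMIs, at least 2 and without a tie. It was called in 17361 of 19647 cells, at 78.7%, 92.9%, 95.1% and 93.7% of the libraries' cells. C57BL/6 replicate 1 was lowest, and within its iNKT1-like cells 66.2% were called against 90.9% to 95.5% elsewhere. The called share was higher by 8.60 percentage points in Hivep3-/- (exact permutation test, two-sided, p = 0.333, the smallest that 2 against 2 libraries allow). Without C57BL/6 replicate 1 the difference was 1.47 points, and without the other C57BL/6 library it was 15.7. With every cell thinned to 2000 UMIs the called shares were 53.4%, 72.3%, 75.5% and 70.4%, with overlapping groups. Of the 2286 cells without a call, 996 had no UMI of any listed segment, 1217 had no more than 1 UMI of any and 73 had a tie.

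The level of free RNA was read from cells that should carry no T cell receptor. Among 15 cells with B cell markers and no CD3 transcript (median 3589 UMIs), 0 had a call, which allows a share of up to 20%, and 2 had a UMI of a listed beta segment (13.3%, exact 95% binomial interval 1.66% to 40.5%). None of the 15 held Trav11, Traj18 or Trac. In cells called for another segment, Trbv13-2 had a UMI in 12.96%, 14.0%, 14.7% and 13.4%, and every other beta member in 0.690% to 5.16%. A single UMI of Trbv13-2 was thus common outside the cells called for it.

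Trbv13-2 was the segment most often called in every library. It made up 41.4%, 51.9%, 48.4% and 46.3% of called cells, with exact 95% binomial intervals, which cover counting error only, of 40.1% to 42.7% in the lowest library and 50.2% to 53.6% in the highest. The 2 C57BL/6 libraries lay on both sides of the Hivep3-/- pair, so the genotypes overlapped. The means were 46.7% ± 7.43 in C57BL/6 and 47.4% ± 1.48 in Hivep3-/- (SD, n = 2 each; difference 0.68 points, exact permutation p = 1). Without C57BL/6 replicate 1 the difference was −4.57 points, and leaving out the other C57BL/6 library gave 5.93.

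Trbv29 came second, with 24.1%, 19.0%, 19.1% and 21.7% of called cells. C57BL/6 replicate 1 was highest and the other C57BL/6 library lowest, so this share did not separate the genotypes. The means were 21.6% ± 3.57 and 20.4% ± 1.88 (SD, n = 2 each; exact permutation p = 1). Without C57BL/6 replicate 1 the difference, −1.15 points with all libraries, was 1.38.

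Trbv13-1 was called in 14.4%, 12.5%, 13.3% and 12.6% of called cells and Trbv1 in 12.5%, 8.87%, 11.4% and 12.3%. Trbv13-1 was above Trbv1 in every library, narrowly so in Hivep3-/- replicate 2, and neither separated the genotypes. Trbv13-3, the smallest of the V beta 8 family, made up 6.10%, 6.40%, 5.53% and 5.23%. It was lower in both Hivep3-/- libraries (5.38% ± 0.217 against 6.25% ± 0.210, SD, n = 2 each; exact permutation p = 0.333). Trbv17 and Trbv19 were rare, at 0.501% to 1.21% and 0.766% to 1.10% of called cells. Both were higher in the Hivep3-/- pair without overlap (exact permutation p = 0.333 for both, the smallest possible). Trbv17 rests on 35, 17, 53 and 27 cells and Trbv19 on 47, 26, 46 and 43.

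The order by mean share was thus Trbv13-2, Trbv29, Trbv13-1, Trbv1, Trbv13-3, Trbv19 and Trbv17. Trbv13-1 and Trbv1 were neighbours whose ranges overlapped, as were Trbv19 and Trbv17. The ranges of Trbv13-2, Trbv29 and Trbv13-3 did not overlap those of any other member.

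**Figure D1:**
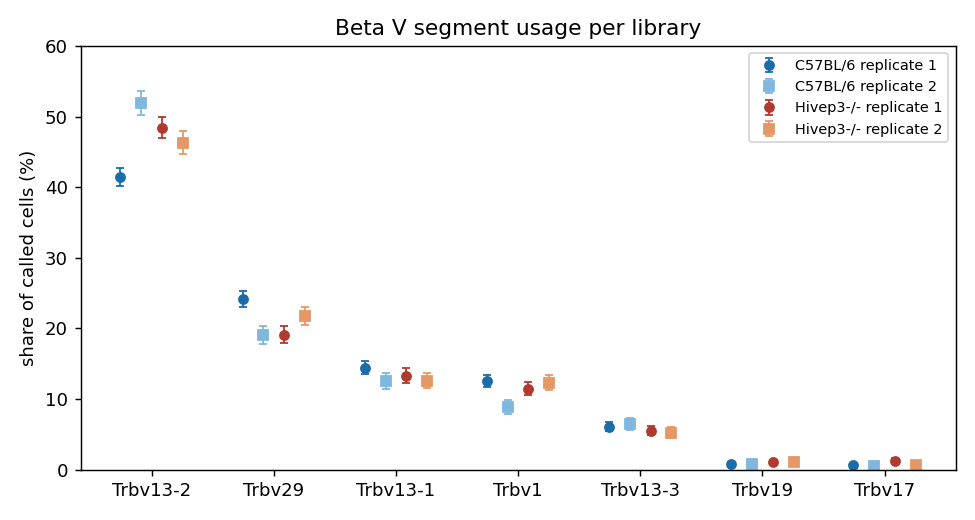
Share of called cells (percent, linear axis) assigned to each listed beta V segment in the 4 libraries, 1 point per library with its exact 95% binomial interval. Trbv13-2 is highest in all 4 libraries, from 41.4% to 51.9%, and the libraries of both genotypes overlap for Trbv13-2, Trbv29, Trbv13-1 and Trbv1.

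A single cell usually showed one segment. At least 2 UMIs of a second listed segment were found in 7.77%, 6.54%, 9.14% and 8.38% of called cells. Such cells were 26.9% of called cells among the 5% with the highest doublet scores and 6.96% among the rest, and their median depth was 8884 UMIs against 6102.5 in cells with one segment. The most common pair was Trbv13-2 with Trbv13-3 (246 cells), the pair with the longest shared run among the beta members, followed by Trbv13-2 with Trbv29 (216 cells) and with Trbv1 (161 cells). The part of shared sequence, doublets and free RNA in these pairs was not tested.

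The number of UMIs behind a call differed between segments. Cells called for Trbv13-2 had medians of 4, 7, 10 and 7 UMIs of it, and in C57BL/6 replicate 1 43.4% of these calls rested on 2 or 3 UMIs. Cells called for Trbv29 had medians of 9, 8, 9 and 10, so C57BL/6 replicate 1 did not stand apart for this segment. Cells called for Trbv1 had medians of 11, 14, 21 and 17, the highest of the 5 common segments in every library. The lower Trbv13-2 share of C57BL/6 replicate 1 thus came with fewer Trbv13-2 UMIs per called cell, and the part of capture in that share was not tested.

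**Figure D2:**
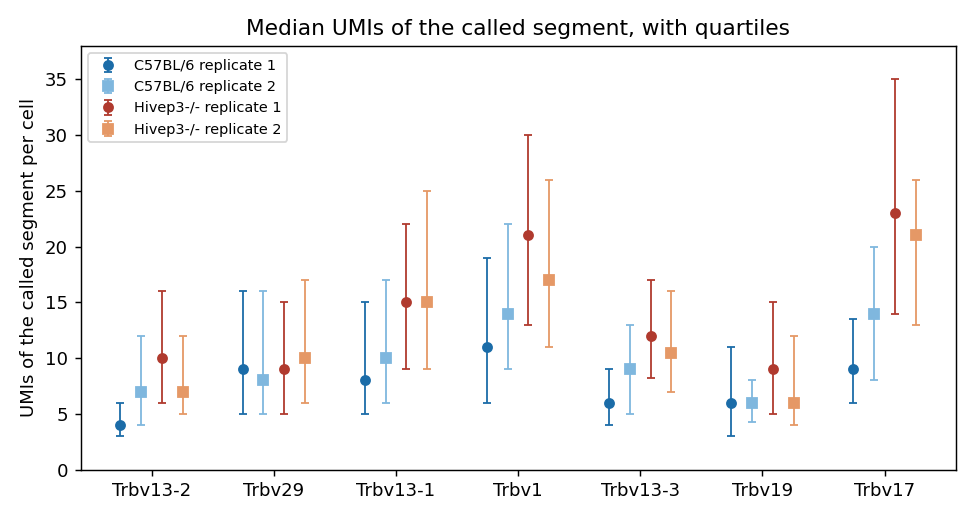
Median UMIs of the called segment per called cell, by segment and library, with bars from the lower to the upper quartile. Cells called for Trbv13-2 in C57BL/6 replicate 1 have a median of 4 UMIs, and those called for Trbv1 have 11 to 21.

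The 7 listed segments covered most beta chains. When the call was made over all 35 Trbv rows of the table, 838 of 17752 calls (4.72%) fell on the 28 other rows, at 5.07%, 3.67%, 4.20% and 5.70% of the libraries' calls. Trbv5 (193 cells), Trbv31 (181 cells) and Trbv4 (159 cells) were the most frequent. In stage 0-like cells unlisted segments took 9.00%, 6.25%, 5.52% and 9.00% of calls, and in iNKT1-like cells 4.52%, 2.71%, 3.39% and 4.46%. They were thus more frequent in stage 0-like than in iNKT1-like cells in 4 of 4 libraries, by values that rest on 7 to 35 stage 0-like cells each.

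Usage was then compared between classes within each library, with an exact sign-flip permutation test over the 4 libraries, whose smallest two-sided p is 0.125. None of these comparisons can therefore pass 0.05. The iNKT1-like class, which held most cells, served as reference.

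For the share of Trbv29 the order of the classes differed between the genotypes. In iNKT2-like cells Trbv29 was called in 28.5%, 25.1%, 16.1% and 19.5% of called cells. Both C57BL/6 libraries were above both Hivep3-/- libraries, and the exact 95% interval of C57BL/6 replicate 1 (26.6% to 30.4%) overlapped neither Hivep3-/- interval (12.9% to 19.8% and 16.2% to 23.1%). That of C57BL/6 replicate 2 (21.98% to 28.4%) overlapped the interval of Hivep3-/- replicate 2. The means were 26.8% ± 2.38 in C57BL/6 and 17.8% ± 2.39 in Hivep3-/- (SD, n = 2 each), a difference of −8.97 points (exact permutation p = 0.333, the smallest possible). The difference was between −10.7 and −7.28 when 1 library was left out, and between −14.5 and −7.88 under 10 other ways of calling segments, cells or classes. In iNKT1-like cells Trbv29 was called in 20.1%, 18.0%, 19.4% and 21.9%, with overlapping genotypes.

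Within libraries, Trbv29 usage in iNKT2-like cells exceeded that in iNKT1-like cells by 8.33 and 7.13 points in C57BL/6 and differed from it by −3.32 and −2.38 points in Hivep3-/-. The sign of this share difference was therefore opposite in the 2 genotypes. The genotypes differed in it by −10.6 points (C57BL/6 mean 7.73, Hivep3-/- mean −2.85; exact permutation p = 0.333, the smallest possible). The level of Trbv29 did not change sign. It was at 445, 417, 274 and 341 CPM in iNKT2-like cells and at 195, 217, 234 and 257 CPM in iNKT1-like cells, higher in iNKT2-like cells in every library. Within the class, the cluster led by Cd74 and Il6ra had Trbv29 at 33.1%, 30.2%, 16.2% and 19.1%, and the cluster led by Ccr9 had 24.6%, 20.9%, 15.9% and 20.6%. The genotypes were apart in both, by a wide margin in the first and by less than 1 point between the nearest libraries in the second. The genotype difference was −14.0 points in the first cluster, −4.49 in the second and −9.26 with both weighted equally in every library.

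Where Trbv29 was less used in Hivep3-/- iNKT2-like cells, Trbv1 was more used. Trbv1 was called in 10.1%, 9.15%, 16.3% and 15.0% of called iNKT2-like cells. Both Hivep3-/- libraries were above both C57BL/6 libraries. The means were 9.60% ± 0.635 and 15.7% ± 0.974 (SD, n = 2 each; difference 6.05 points, exact permutation p = 0.333), and the difference lay between 5.36 and 6.74 when 1 library was left out. It depended on the cluster. In the cluster led by Cd74 and Il6ra Trbv1 was called in 9.43%, 10.8%, 18.5% and 17.3%, and in the cluster led by Ccr9 in 10.6%, 7.81%, 9.73% and 8.51%. The genotype difference was 7.79 points in the first and −0.068 in the second, where the genotypes overlapped, and 3.86 with both weighted equally. Shares add up to the whole, so a lower share of one segment raises the others. Of the 12 iNKT2 markers, 5 were lower and 0 higher in Hivep3-/- iNKT2-like cells by edgeR, with a median log2 fold change of −0.51 beside 0.04 over all genes, so cells given this class differed in its markers too, and the part of that in these shares was not tested. Trbv13-2 in the same cells was 43.4% ± 2.37 against 41.8% ± 1.27 and overlapped between genotypes. In stage 0-like cells Trbv1 went the other way, at 15.2%, 9.26%, 8.36% and 8.52% (genotype difference −3.77 points, exact permutation p = 0.333). In iNKT1-like cells it was called in 15.3%, 8.40%, 11.1% and 13.7%, with overlapping genotypes.

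In iNKT17-like cells Trbv29 was called in 22.3%, 12.6%, 10.9% and 8.33%. These shares rest on 46, 16, 14 and 11 cells. The genotype difference was −7.87 points (exact permutation p = 0.333) and −3.01 without C57BL/6 replicate 1, which held the only high value. In stage 0-like cells Trbv29 was called in 17.2%, 18.5%, 21.3% and 20.3%, here with the Hivep3-/- pair above the C57BL/6 pair by 2.98 points. This depended on the cluster. In the cluster led by Itm2a and Cldn10 it was 16.7%, 25.5%, 18.6% and 20.6%, with overlapping genotypes. In the cluster led by Gm43352 and Itm2a it was 17.6%, 13.1%, 24.5% and 20.1%. In cycling-like cells Trbv29 was called in 23.3%, 20.7%, 22.5% and 28.7%.

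Trbv13-1 shares were higher in the iNKT17-like than in the iNKT1-like class. It was called in 17.0%, 17.3%, 19.4% and 23.5% of called iNKT17-like cells and in 15.3%, 11.3%, 12.8% and 9.79% of iNKT1-like cells. This held in 4 of 4 libraries, with a mean difference of 6.99 points ± 4.99 (SD, n = 4; exact sign-flip permutation p = 0.125, the smallest possible). The iNKT17-like values rest on 35, 22, 25 and 31 cells. In stage 0-like cells it was also above the iNKT1-like class in 4 of 4 libraries, by 3.53 points ± 2.60 (SD, n = 4; exact sign-flip permutation p = 0.125).

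Trbv13-2 was lower in iNKT2-like than in iNKT1-like cells in 3 of 4 libraries (mean 42.6% ± 1.80 against 48.2% ± 5.43, SD, n = 4; difference −5.59 points, exact sign-flip permutation p = 0.25). C57BL/6 replicate 1 was the exception, with a difference of 0.51 points. Trbv13-3 was higher in iNKT2-like than in iNKT1-like cells in both Hivep3-/- libraries, by 1.36 and 4.04 points, and lower in both C57BL/6 libraries, with differences of −1.60 and −0.20.

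**Figure D3:**
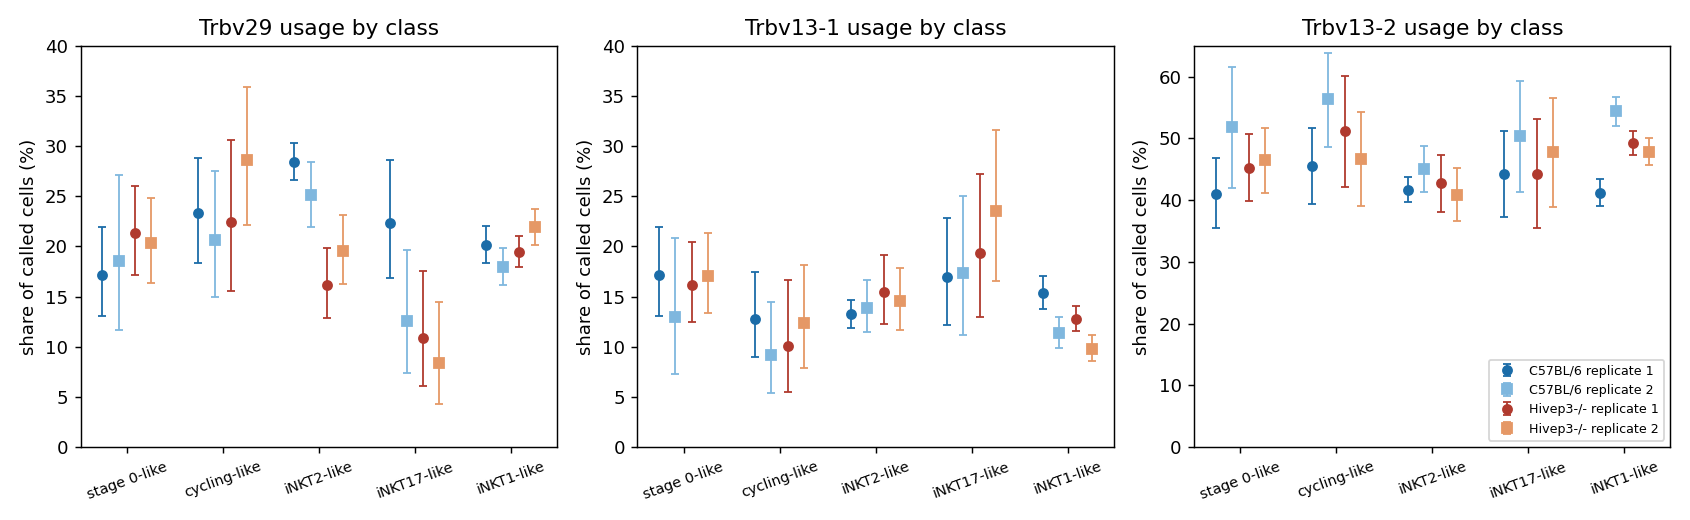
Share of called cells (percent, linear axis from 0) assigned to Trbv29, Trbv13-1 and Trbv13-2 in each class, 1 point per library with its exact 95% binomial interval. In iNKT2-like cells the C57BL/6 points for Trbv29 lie at 25.1% and 28.5% and the Hivep3-/- points at 16.1% and 19.5%, while in iNKT1-like cells all 4 lie between 18.0% and 21.9%.

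The levels of the 9 members were tested beside all other genes, on UMI counts summed over the cells of a library and class, with edgeR's quasi-likelihood test and Benjamini-Hochberg adjustment over every gene that passed the count filter. In such sums, fewer cells that use a segment and fewer transcripts of it per cell cannot be told apart. A count of members called under an alternative, given without the share of all genes, is not read as a result about the members.

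Between genotypes over all cells, 0 of the 9 members were called at an adjusted p under 0.05 by edgeR, where 0.765% of 12291 genes were. An unadjusted p under 0.05 was reached by 4 members (Trbv1, Trbv13-1, Trbv17 and Trbv19), all higher in Hivep3-/-, and DESeq2 called 2. The median log2 fold change of the members was 0.38, beside 0.03 over all genes tested, and it rested on single libraries, at 0.07 without C57BL/6 replicate 1 and 0.12 without Hivep3-/- replicate 1. Trav11 had 4.40, 20.1, 32.6 and 13.004 CPM, and the wide spread within C57BL/6 left its fold change of 0.81 on the log2 scale with an SE of 0.69. That value was 0.07 without C57BL/6 replicate 1, 2.27 without C57BL/6 replicate 2, 0.03 without Hivep3-/- replicate 1 and 1.27 without Hivep3-/- replicate 2.

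Within classes, edgeR called 0 members between genotypes in stage 0-like cells (0.274% of all genes called; 2 members at an unadjusted p under 0.05), 0 in cycling-like (0.285%; 1 unadjusted), 0 in iNKT2-like (1.81%; 6 unadjusted) and 0 in iNKT1-like cells (0.695%; 2 unadjusted). DESeq2 called 0, 0, 3 and 1 in the same classes. Without the low-count filter edgeR called 7 members in iNKT2-like cells, 6 higher and 1 lower, where 7.02% of all genes were called. In iNKT2-like cells Trbv29 was at 445, 417, 274 and 341 CPM, with both Hivep3-/- libraries lower. The log2 fold change was −0.55 (SE 0.15; edgeR quasi-likelihood test, Benjamini-Hochberg adjusted p = 0.119, unadjusted 0.00696). Trbv1 in the same cells was at 246, 254, 554 and 379 CPM, with both Hivep3-/- libraries higher (log2 fold change 0.83, SE 0.16; edgeR adjusted p = 0.0548). In the cluster led by Cd74 and Il6ra alone, the log2 fold changes were −0.95 for Trbv29 (edgeR adjusted p = 0.0505) and 1.08 for Trbv1 (edgeR adjusted p = 0.117). In the cluster led by Ccr9 they were −0.14 (edgeR adjusted p = 0.701) and 0.19 (edgeR adjusted p = 0.590). The difference between the clusters was not tested.

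In iNKT2-like and cycling-like cells the count of members called between genotypes changed when single libraries were left out. Such fits have 1 library in a group, so these counts are not read as a result.

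In iNKT17-like cells Trbv17 UMIs numbered 1, 0, 84 and 96. With almost none in C57BL/6, it passed the count filter through the Hivep3-/- libraries, so its test is not read as a result, and no fold is given. These UMIs came from few cells: Trbv17 was called in 0 C57BL/6 and in 2.30% ± 0.0374 of called Hivep3-/- iNKT17-like cells (SD, n = 2), which is 3 cells in each library. Trbv19 UMIs numbered 6, 5, 25 and 26. It too passed the count filter through the Hivep3-/- libraries, so its test is not read as a result either. Of the 8 members other than Trbv17, edgeR called 0, where 0.0656% of all genes were called. An unadjusted p under 0.05 was reached by 4 of these 8, Trbv19 among them. DESeq2 called 1 of the 8, Trbv13-1.

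Between classes, changes of level were common over the whole transcriptome. From iNKT1-like to iNKT2-like cells, edgeR called 5 of 9 members, 2 higher and 3 lower, where 60.3% of 10145 genes were called. Trbv29 was higher in iNKT2-like cells (log2 fold change 0.64, SE 0.21), and so was Trbv13-1 (0.48, SE 0.17). Both alpha members were lower. Trav11 was at 2.43, 11.8, 23.9 and 12.1 CPM in iNKT2-like cells and at 8.79, 29.8, 35.4 and 15.6 in iNKT1-like cells, lower in 4 of 4 libraries. Its log2 fold change was −1.06 (SE 0.17, edgeR adjusted p = 2.14e-05). Median UMIs per cell were 9060, 12310, 9599 and 9175 in iNKT2-like cells and 3444.5, 4580, 6448.5 and 5707.5 in iNKT1-like cells. Trav11 had a UMI in 2.26%, 12.6%, 19.6% and 10.3% of iNKT2-like cells and in 3.04%, 12.2%, 16.8% and 8.16% of iNKT1-like cells. The lower level is thus relative to all UMIs, which were more numerous per iNKT2-like cell. Traj18 was also lower, by a log2 fold change of −0.78 (SE 0.15), and Trbv13-2 had a log2 fold change of −0.18 (SE 0.07). The 3 beta calls depended on single libraries: the Trbv29 call was lost without C57BL/6 replicate 1 (edgeR adjusted p = 0.0929) or replicate 2 (0.0857), that of Trbv13-1 without Hivep3-/- replicate 2 (0.0598), and that of Trbv13-2 without any library but Hivep3-/- replicate 1. Both alpha calls held whichever library was left out, and the same 5 members were called without the interferon cluster.

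The constant genes moved in opposite directions in the same contrast. The alpha constant gene Trac was lower in iNKT2-like cells (log2 fold change −0.84, SE 0.13), and the beta constant genes Trbc1 and Trbc2 were higher (0.68, SE 0.13, and 0.85, SE 0.14; all called by edgeR). Of the 7 TCR constant and CD3 genes, 3 were higher and 3 lower, with a median of −0.02 beside −0.03 over all genes. Of 13 other Trbv rows that could be tested, 4 were higher and 0 lower by edgeR (5 at an unadjusted p under 0.05), with a median of 0.78. Of 32 other Trav rows, 2 were higher and 2 lower, with a median of −0.36.

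From iNKT1-like to iNKT17-like cells, edgeR called 3 of 9 members, where 30.3% of all genes were called. Trbv13-1 was higher (log2 fold change 0.83, SE 0.17; edgeR adjusted p = 0.000865), as was Trbv13-3 (0.54, SE 0.19), and Trav11 was lower (−0.72, SE 0.24). Without C57BL/6 replicate 2 edgeR called only Trbv13-1. Trbv13-1 is also the segment with the higher share of cells in that class. Trbv29 had a log2 fold change of −0.20 (SE 0.23) and was not called.

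In stage 0-like cells against the mean of the other 4 classes, edgeR called 6 of 9 members, where 53.8% of all genes were called. Those that were higher were Trbv13-1 (log2 fold change 0.58), Trbv13-2 (0.33), Trbv13-3 (0.38), Trbv29 (0.45) and Trbv19 (0.63), and Trbv1 was lower (−0.58). Trbc1 (1.56) and Trbc2 (1.15) were also higher, by more than any listed V segment. Other Trbv rows were higher in 6 and lower in 1 of 13, with a median of 0.87, and other Trav rows were higher in 10 and lower in 0 of 32 (10 at an unadjusted p under 0.05). Of 16 genes of the TCR signal response, such as Egr2 and Nr4a1, 11 were higher and 3 lower, with a median of 0.97 beside −0.03 over all genes. Stage 0 itself was named in part from such genes. The count of members called was 4 without C57BL/6 replicate 1, 5 without C57BL/6 replicate 2, 2 without Hivep3-/- replicate 1 and 4 without Hivep3-/- replicate 2.

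The genotype difference was set against class by an interaction term. Of the 9 members edgeR called 1, Trav11, where 6.43% of 10424 genes were called. The log2 fold change from iNKT1-like to iNKT2-like cells was higher in Hivep3-/- than in C57BL/6 by 1.03 for Trav11 (SE 0.22, edgeR adjusted p = 0.00872). The call was lost without C57BL/6 replicate 1 (0.83, edgeR adjusted p = 0.139), which had 58 and 93 Trav11 UMIs in the 2 classes, and without Hivep3-/- replicate 1 (1.12, edgeR adjusted p = 0.0578), and held without either of the other libraries, with DESeq2 (adjusted p = 0.0266) and without the interferon cluster (1.09, edgeR adjusted p = 0.00630). Trac showed an interaction of 0.78 (SE 0.15, edgeR adjusted p = 0.00484). That of Trbv29 was −0.76 (SE 0.31, edgeR adjusted p = 0.158) and was not called. Of the TCR signal response list, 4 of 16 genes were called, all with a positive sign, with a median of 0.51 beside 0.01. Median UMIs per cell differed more between the classes in C57BL/6 (9060 against 3444.5 and 12310 against 4580, iNKT2-like first). In Hivep3-/- they were 9599 against 6448.5 and 9175 against 5707.5. The part of this depth in the interactions was not tested.

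The alpha members were sparse. Trav11 had 198, 512, 1115 and 406 UMIs in the 4 libraries and a UMI in 2.63%, 11.9%, 17.9% and 8.69% of cells. C57BL/6 replicate 1 was lowest and Hivep3-/- replicate 1 highest. Traj18 had 397, 370, 502 and 401 UMIs and a UMI in 5.19%, 9.18%, 9.42% and 8.52% of cells. In cells thinned to 2000 UMIs, Trav11 was found in 1.01%, 4.38%, 6.42% and 2.71% and Traj18 in 2.15%, 3.20%, 3.19% and 2.79%, both lowest in C57BL/6 replicate 1.

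Traj18 nevertheless ranked first of 60 Traj rows in every library. It took 54.8%, 59.3%, 57.7% and 59.3% of all Traj UMIs, and the next row, Traj23, had 40 to 46 UMIs in each library. Trav11 ranked 7, 1, 1 and 2 of 128 Trav rows, with 3.41%, 10.9%, 14.4% and 6.11% of all Trav UMIs. Most Trav UMIs thus lay on other rows in every library. How reads that match both Trav11 and Trav11d were counted was not examined. The rank and share of Trav11 are therefore not read as its use among cells. Trav11d had 33, 47, 65 and 57 UMIs and Trav11n 37, 12, 26 and 29. Traj18 was found in 6.32%, 9.63%, 10.2% and 11.9% of cells with a Trav11 UMI and in 5.16%, 9.11%, 9.25% and 8.20% of cells without one. The presence of one alpha member thus said little about the other at this depth.

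**Figure D4:**
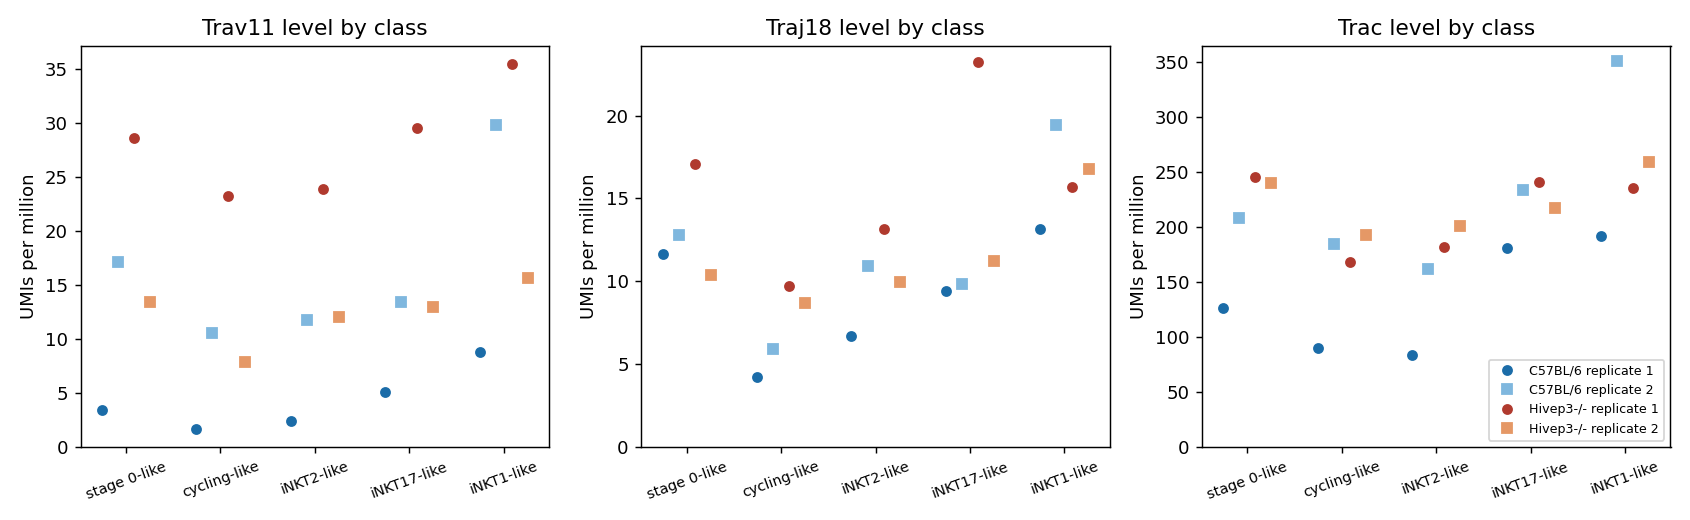
Level of Trav11, Traj18 and Trac (CPM of the summed cells, linear axis from 0) by class, 1 point per library. Trav11 in iNKT2-like cells lies below iNKT1-like cells of the same library in 4 of 4 libraries, and C57BL/6 replicate 1 is the lowest library for Trav11 in every class.

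The beta constant segment was read alongside the V segment. A constant gene, Trbc1 or Trbc2, was called in 4818 of 8044 cells called for Trbv13-2 (59.9%) and in 1245 of 1994 called for Trbv1 (62.4%), and the shares below are of these cells alone. Trbc1 was the called gene in 9.16% ± 1.63 of them for Trbv13-2 and in 13.2% ± 5.12 for Trbv1 (SD, n = 4). Trbv1 cells had the higher share in 4 of 4 libraries, by 3.39, 0.61, 2.92 and 9.14 points (mean 4.02 ± 3.63, SD, n = 4; exact sign-flip permutation p = 0.125). Without Hivep3-/- replicate 2 the mean was 2.31. Trbv13-3 cells were also higher in 4 of 4 libraries (3.33 points ± 2.66, SD, n = 4; exact sign-flip permutation p = 0.125), and by 2.24 without Hivep3-/- replicate 2. Trbv29 cells differed by 0.20 points (exact sign-flip permutation p = 1), with a sign that changed without single libraries. Trav11 was found in 6.56% to 12.3% of cells on average across the 7 segments and Traj18 in 6.82% to 12.97%.

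Gene expression was compared between cells that differed in beta segment but shared class and library, by edgeR with library as a block, and with all V, D and J rows of the T cell receptor genes left out. Trbv13-2 cells were the reference. In iNKT1-like cells, Trbv29 cells differed in 16 of 8645 genes (0.185%), 7 higher and 9 lower. In iNKT2-like cells, they differed in 11 of 7771 genes (0.142%), 10 higher and 1 lower. DESeq2 called 12 and 0 in the same comparisons, so the iNKT2-like calls depended on the tool. They also depended on single libraries, with 1 gene called without C57BL/6 replicate 2, 5 without C57BL/6 replicate 1, 20 without Hivep3-/- replicate 1 and 18 without Hivep3-/- replicate 2. In iNKT1-like cells 9 to 14 genes were called without a library, the fewest without C57BL/6 replicate 2.

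Cells of a class were not matched for cluster, and segment shares differed between clusters. The fit was therefore repeated on counts summed per library, cluster and segment, over sums of at least 20 cells, with library and cluster together as the block, an alternative chosen after the data were seen. In this fit the clusters of a mouse entered as separate blocks. Its p-values therefore also take clusters of the same mouse as replicates, and do not measure the spread between mice alone. The fit called 17 genes for Trbv29 in the iNKT1-like class (0.244%) and 4 in the iNKT2-like class (0.0515%), 2 higher and 2 lower. Without the interferon cluster, 24 genes were called for Trbv29 in iNKT1-like cells.

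Klra1, a Ly49 family natural killer receptor, was higher in Trbv29 cells of both classes. In iNKT1-like cells it was at 340, 302, 649 and 479 CPM in Trbv29 cells and at 235, 178, 537 and 470 in Trbv13-2 cells of the same libraries. It was higher in 4 of 4 libraries (log2 fold change 0.34, SE 0.07; edgeR adjusted p = 0.00462; DESeq2 adjusted p = 0.304). In iNKT2-like cells it was at 59.3, 67.3, 225 and 254 in Trbv29 cells and at 51.4, 43.8, 160 and 134 in Trbv13-2 cells. Again 4 of 4 libraries were higher (log2 fold change 0.54, SE 0.09; edgeR adjusted p = 0.00640), but the call was lost with the cluster block (0.42, edgeR adjusted p = 0.385) and with DESeq2 (adjusted p = 0.439). Ly49 genes have near-identical copies, so the assignment of reads to Klra1 is uncertain. Fcer1g, an adapter of activating receptors, was also higher in Trbv29 cells in 4 of 4 libraries of both classes (0.22, SE 0.05, in iNKT1-like and 0.69, SE 0.13, in iNKT2-like cells). It was called under 6 of 9 alternatives in iNKT1-like cells and under 4 of 9 in iNKT2-like cells, and with DESeq2 in neither (adjusted p = 0.395 and 1). With the cluster block the call held in iNKT1-like cells (0.25, edgeR adjusted p = 0.00793) and was lost in iNKT2-like cells (0.55, edgeR adjusted p = 0.377).

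Gzmb, which encodes the cytotoxic granule protease granzyme B, was lower in Trbv29 cells of the iNKT1-like class. It was at 454, 824, 684 and 913 CPM in Trbv29 cells and at 596, 1024, 861 and 949 in Trbv13-2 cells. All 4 libraries were lower, narrowly so in Hivep3-/- replicate 2 (log2 fold change −0.25, SE 0.04; edgeR adjusted p = 0.000473), and the gene was called under 9 of 9 alternatives. Cxcr6, a chemokine receptor of iNKT cells, was lower (−0.23, SE 0.05), as were Gimap7 (−1.02, SE 0.13), Dtx1 (−0.70, SE 0.12) and Gimap6 (−0.22, SE 0.04). Ccr10 (0.53, SE 0.09), the integrin gene Itgae (0.19, SE 0.04) and Vim (0.17, SE 0.03) were higher. Each of these had its direction in 4 of 4 libraries, and all 10 genes named here for Trbv29 in iNKT1-like cells were called with the cluster block and without the interferon cluster. Under the other 9 alternatives the calls held less evenly. Gimap7, Dtx1 and Gimap6 were called under 8, Cxcr6, Ccr10 and Vim under 7, Klra1 under 6 and Itgae under 4. DESeq2 gave no adjusted p for Ccr10, Gimap7 and Dtx1.

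In iNKT2-like cells the other named genes higher in Trbv29 cells were Tnfrsf9 (0.58, SE 0.11), the activation receptor 4-1BB, Eng (0.57, SE 0.10) and Pdcd1 (0.40, SE 0.08), the inhibitory receptor PD-1. Eng was higher in 4 of 4 libraries and Tnfrsf9 and Pdcd1 in 3 of 4. Ap3s1 was lower (−0.40, SE 0.08). With the cluster block Pdcd1 and Ap3s1 were called (edgeR adjusted p = 0.00620 for both), and Tnfrsf9 (0.161) and Eng (0.0595) were not. Of the 16 TCR signal response genes, edgeR called 1 in this comparison, Tnfrsf9, with a median of 0.05 beside 0.01 over all genes. In iNKT1-like cells it called 0 of 15 (5 at an unadjusted p under 0.05), with a median of −0.05.

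Trbv1 cells differed from Trbv13-2 cells in 15 genes of the iNKT1-like class (0.174%) and in 2 of the iNKT2-like class (0.0257%), while DESeq2 called 1 and 0. Without Hivep3-/- replicate 1 edgeR called 3 and 0 genes. Trbc1 was at 81.2, 149, 119 and 129 CPM in Trbv1 cells and at 50.9, 92.8, 86.0 and 91.8 in Trbv13-2 cells of the iNKT1-like class. It was higher in 4 of 4 libraries (log2 fold change 0.54, SE 0.07; edgeR adjusted p = 1.5e-05) and under 9 of 9 alternatives. This is the same direction as the share of Trbc1 calls, and it comes from the same cells. Gimap7 was lower (−1.004, SE 0.16), as in Trbv29 cells. In the iNKT2-like class the 2 genes were Klra1 and S100a4, both lower in Trbv1 cells in 4 of 4 libraries (−0.70, SE 0.13, and −0.60, SE 0.11; edgeR adjusted p = 0.0293 for both, called under 3 of 9 alternatives each). With the cluster block 0 genes were called in the iNKT2-like class (edgeR adjusted p = 0.765 for Klra1 and 0.923 for S100a4).

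The interferon-induced chemokine gene Cxcl10 was also called in Trbv1 cells of the iNKT1-like class (2.33, SE 0.33). It was at 30.9, 0, 118 and 15.4 CPM against 4.30, 7.10, 14.3 and 10.0, and so not higher in C57BL/6 replicate 2. The call was lost without the interferon cluster (0.73, edgeR adjusted p = 0.979). The remaining named genes were Ifitm1 (1.38), Lgals3 (0.30) and Pdia6 (0.30) among those higher, and Itga4 (−0.72), Sidt1 (−0.43), Klrc1 (−0.26) and Zyx (−0.20) among those lower. Without the interferon cluster Klrc1 and Zyx were not called (edgeR adjusted p = 0.107 and 0.138), and with the cluster block Sidt1 was not (edgeR adjusted p = 0.127).

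Trbv13-3 cells differed from Trbv13-2 cells in 0 of 8645 genes of the iNKT1-like class (0% by edgeR; 462 at an unadjusted p under 0.05; DESeq2 called 0). In the iNKT2-like class edgeR called 2 genes (0.0257%), both lower, the replication factor gene Pclaf (−0.91, SE 0.18) and the cytokine gene Il13 (−0.81, SE 0.16; edgeR adjusted p = 0.0481 for both), and DESeq2 called 0. Without single libraries edgeR called 0 to 12 genes here, none without C57BL/6 replicate 2 and most without Hivep3-/- replicate 1. With the cluster block it called 4 genes, all lower, Pclaf and Il13 among them. Pclaf was lower in 3 and Il13 in 4 of 4 libraries. Il13 was at 77.6, 49.9, 9.76 and 2.33 CPM in Trbv13-3 cells and at 137, 85.6, 16.8 and 10.2 in Trbv13-2 cells.

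**Figure D5:**
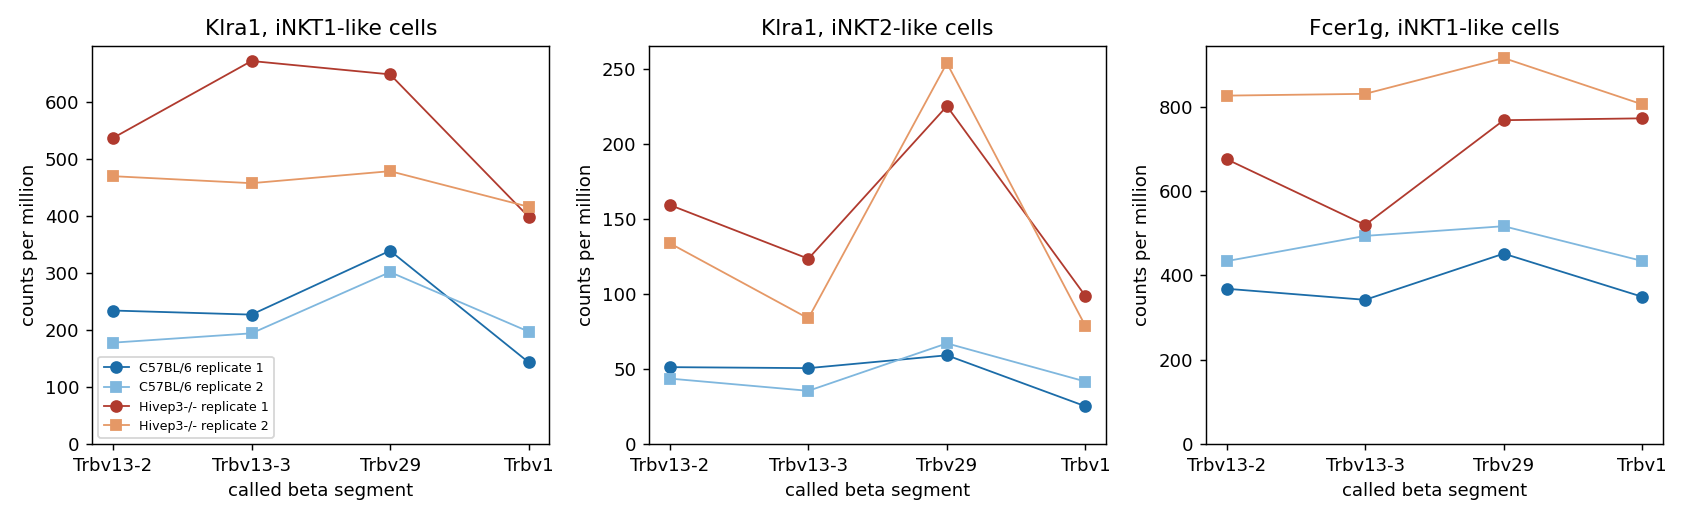
Levels (CPM, linear axis from 0) of Klra1 in iNKT1-like and iNKT2-like cells and of Fcer1g in iNKT1-like cells, by called beta segment, with the points of a library joined by a line. Both genes are higher in Trbv29 than in Trbv13-2 cells in 4 of 4 libraries of each panel, and Klra1 in iNKT2-like cells, whose call was lost with the cluster block, goes from 134 to 254 in Hivep3-/- replicate 2.

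The genes whose levels were most like those of 4 members were found by Pearson correlation of log2(CPM + 1) over the 20 library and class sums, which share depth and library effects. For Trav11 they were Rsrp1 (r = 0.931), Stx4a (0.869) and H2-T23 (0.865) among 5390 genes. For Trbv13-2 they were Ccdc85b (0.925), Ngdn (0.901) and Ensa (0.882), for Trbv29 Eif2s1 (0.861), Ppid (0.859) and Polr2h (0.856), and for Trbv1 Cd247 (0.811), Ppp2r1a (0.696) and Xbp1 (0.649). The likeness of Trbv1 was thus weaker than that of the other 3.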

How the data were processed

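Thymic iNKT cells of 4 mice were profiled by 5' single-cell RNA sequencing, 2 libraries per genotype. The authors deposited a matrix of UMI counts per gene and cell barcode for each library, with no normalisation; the submitters' processing notes name Cell Ranger 3.1.0 and Seurat 3.1.4. Totals were 31381738 to 48291764 UMIs per library. Cells with 500 to 4100 genes, at least 1000 UMIs and under 6% mitochondrial UMIs were kept.

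Clusters were computed in Python 3.11.15 (numpy 2.4.6, scikit-learn 1.9.0, igraph 0.11.9, resolution 0.8) after correction between libraries, and named from marker lists by a rule set after the data were seen. Scrublet's threshold marked 3 cells in all, so it had not worked and no doublets were removed. The top 5% of scores were left out in an alternative. Counts were summed per library and class (at least 20 cells) and tested with edgeR 4.0.16 (R 4.3.3, limma 3.58.1) and, as an alternative, DESeq2 1.42.0. Other alternatives were calls at 1 or 3 UMIs, calls over all Trbv rows or of single segments, thinning to 2000 UMIs (593 C57BL/6 and 157 Hivep3-/- cells were too shallow), cells with at least 200 genes and under 10% mitochondrial UMIs, clusters at resolution 0.4 or 1.2 or without correction, no low-count filter, a replicate block, and leaving out each library. Clusters within a class, the iNKT1-like class without its interferon cluster, and library and cluster together as a block were alternatives chosen after the data were seen. Shares were compared with exact permutation tests in scipy 1.17.1.

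The text names the 9 members, close copies and constant genes, the 3 unlisted Trbv rows with most cells and, of genes that differ by segment, up to 5 with the largest rise and 5 with the largest fall at a mean of 20 CPM or more. The members and lists were chosen with earlier results of these data known. On simulated counts for 12135 genes of the genotype comparison, 26.5% of genes changed by 1 and 96.9% of those changed by 2 on the log2 scale were recovered. For iNKT2-like against iNKT1-like cells (9779 genes) the shares were 71.8% and 100%, and for Trbv29 against Trbv13-2 cells of the iNKT1-like class (8498 genes) 68.0% and 99.0%.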

Additional observations from a re-analysis of the deposited data

Results flagged for a closer look

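In 3 results the effect of class differed between genotypes. Depth per cell also differed between iNKT2-like and iNKT1-like cells, more so in C57BL/6, and its part in these results was not tested. The Trbv29 share of iNKT2-like less iNKT1-like cells was above 0 in both C57BL/6 libraries and below 0 in both Hivep3-/- libraries, and the means differed by −10.6 points (exact permutation p = 0.333, the smallest possible). The level of Trbv29 in CPM was higher in iNKT2-like than in iNKT1-like cells in every library. The Trbv13-3 share went the opposite way to the Trbv29 share in every library, with a difference of 3.60 points (exact permutation p = 0.333). The Trav11 level showed an interaction of 1.03 on the log2 scale (SE 0.22; edgeR adjusted p = 0.00872), which was not called without C57BL/6 replicate 1 (0.83, edgeR adjusted p = 0.139) or without Hivep3-/- replicate 1 (1.12, edgeR adjusted p = 0.0578).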

How the results depend on the processing

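Over 98 results and 1095 alternative values, 26 reversed their sign. The Trbv13-2 genotype difference was −1.16 points with calls at 1 UMI and ran from −4.57 to 5.93 without single libraries. The same range was −1.49 to 0.446 for Trbv13-1, −3.68 to 1.38 for Trbv29 and −0.637 to 3.005 for Trbv1. For iNKT2-like less iNKT1-like cells, Trbv13-3 was −0.485 with single-segment cells and −0.147 to 1.73 without single libraries, and Trbv1 was −0.823 with calls at 3 UMIs and −1.08 to 2.41 without single libraries. For stage 0-like less iNKT1-like cells, single-segment cells gave 0.220 for Trbv13-2 and −1.11 for Trbv13-3, while Trbv29 was 0.207 at 3 UMIs, 0.999 thinned, 1.53 with the other cell filter and −1.32 to 0.293 without single libraries. For iNKT17-like less iNKT1-like cells, Trbv13-2 was 0.0245 at 3 UMIs and 0.581 with single-segment cells, Trbv13-3 was −0.178 with single-segment cells, and Trbv1 was −2.64 to 0.527 without single libraries. The Trbv1 genotype difference in iNKT2-like cells was −0.068 in the cluster led by Ccr9 alone. Log2 genotype differences over all cells without single libraries were −0.18 to 0.55 for Traj18, −0.14 to 1.06 for Trbv13-2 and −0.085 to 0.45 for Trbv13-3. Members called between genotypes over all cells numbered 3 without the low-count filter, 2 with DESeq2 and 1 with the other cell filter, against 0. Without single libraries 3 to 5 members were called between iNKT2-like and iNKT1-like cells and 1 to 4 between iNKT17-like and iNKT1-like cells. Genes called for Trbv29 against Trbv13-2 numbered 46 without the filter and 9 to 14 without single libraries in iNKT1-like cells. In iNKT2-like cells they numbered 0 with DESeq2, 43 without the filter, 7 with single-segment cells, 21 at resolution 1.2, 4 with the cluster block and 1 to 20 without single libraries. The causes were not tested. Same-numbered libraries did not deviate together (correlation 0.0009 over 12291 genes). With 2 libraries per genotype this cannot tell whether they shared an experiment. With the replicate block edgeR called 0 members over all cells, 6 in iNKT2-like cells, 1 of the 8 other than Trbv17 in iNKT17-like cells, and 0 in the other classes. With 2 libraries per genotype no exact test of a genotype share could pass 0.05, and Trav11 and Traj18 calls are limited by few UMIs.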
